A study of Schizosaccharomyces pombe with 6 samples.

Results

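The genes examined here encode the tRNA ligases and the translation factors of the fission yeast Schizosaccharomyces pombe. They are the protein-coding genes whose product description names a tRNA ligase or a translation initiation, elongation or release factor. The rule found 86 genes among 6986 in the count table. It leaves out some factors whose descriptions are worded otherwise, such as eIF5A and the eIF3e subunit. Of the 86, 62 are counted as cytoplasmic, since their description does not name the mitochondrion, and 24 as mitochondrial. Among the mitochondrial genes, 4 tRNA ligase genes are described as serving both compartments, and they are shown apart.

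Poly(A)+ RNA was sequenced from an h+ strain whose rad24 gene was replaced by the NatMX marker (rad24∆::NatMX, 3 libraries) and from an h+ wild type strain (3 libraries). Each genotype is represented by 1 strain. Both strains were growing vegetatively in log phase at 30 °C in YES, a rich medium. Rad24 is a 14-3-3 protein, which binds phosphorylated partners. The study's title concerns its part in transcription termination by RNA polymerase II. The libraries of a genotype are described as replicate experiments, with no word on separate cultures, and the p-values below measure the spread between libraries, which may be technical.

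A tRNA ligase, also called an aminoacyl-tRNA synthetase, joins an amino acid to its tRNA. Initiation factors bring the first tRNA and the mRNA to the small ribosomal subunit, elongation factors deliver charged tRNAs and move the ribosome along, and release factors free the finished protein at a stop codon. Mitochondria translate their own few mRNAs with a separate set of factors, and the nuclear genome encodes both sets. In yeasts the genes of the cytoplasmic set are known as growth genes, expressed strongly in rich medium.

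Total counts were 19396868 to 21730112 in the rad24 deletion libraries and 11539278 to 15282140 in the wild type libraries. The rad24 gene had 15 to 39 counts in the deletion libraries and 18442 to 22565 in wild type. Of the genes that mark the P mating type, which h+ cells carry, 4 were matched, 3 called higher and 1 (sxa1) lower, with summed levels of 1521 to 1678 CPM (counts scaled to a common library size) in the deletion libraries and 1468 to 1545 CPM in wild type. The sums hide large changes of single genes. The pheromone gene map2 averaged 450.2 CPM in the deletion and 5.14 CPM in wild type, and the receptor gene map3 243 CPM in the deletion and 35.6 CPM in wild type, while sxa1 averaged 836 CPM in the deletion and 1424 CPM in wild type. Of 6 tested markers of the M mating type 4 were called higher and 2 lower. They summed to 98.1 to 100.9 CPM in the deletion libraries and 116 to 129 CPM in wild type, and the defining gene mat1-Mc had no count in any library. Among them mam2 averaged 4.31 CPM in the deletion and 35.5 CPM in wild type, and mfm2 12.2 CPM in the deletion and 2.28 CPM in wild type. The defining P gene, mat1-Pc, was not matched, so neither defining gene could be compared between the groups. Whether the groups differ in mating type was not tested, nor was the part of these genes in the results below. Of all 6084 genes tested, 78.3% were called changed (edgeR, adjusted p below 0.05). All levels below are CPM scaled with TMM factors, which are relative to the rest of the library. In RNA from a whole culture, fewer cells with a transcript and less of it in each cell cannot be told apart.

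Nearly the whole cytoplasmic set was lower in the rad24 deletion, while the mitochondrial set moved both ways. Of the 62 cytoplasmic genes 56 fell, 2 rose and 4 were not called (edgeR quasi-likelihood test, adjusted p below 0.05 over all tested genes), while with scaling by library size only 43 fell and 6 rose. By the same test 37.4% of all tested genes were called lower and 40.9% higher. The median log2 fold change of the cytoplasmic genes was -0.38, against 0.02 over all tested genes. Of the 24 mitochondrial genes 13 rose, 8 fell and 3 were not called, and their median was 0.17. All 86 genes passed the filter on low counts, with 36 to 101394 counts of each gene in a library. Together the 86 genes took 4.11% to 4.21% of the counts in the deletion libraries and 5.03% to 5.30% in the wild type libraries, so the groups did not overlap. Most changes were small. Only tif5, yrs1, tef101 and tif222 fell at least 2-fold, as did 5.52% of all tested genes, and only pth4 rose as far, as did 7.23%. The falls of yrs1, tef101 and tif222 lay close to this cutoff. With upper quartile factors they were -0.93, -0.91 and -0.91 on the log2 scale, and that of tif5 was -1.06. With library size only tif5 was at -0.99. In the authors' deposited table, 63 of the 86 genes were lower and 11 higher at an adjusted p below 0.05, where 29.0% and 30.0% of all genes with an adjusted p were.

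**Figure D1:**
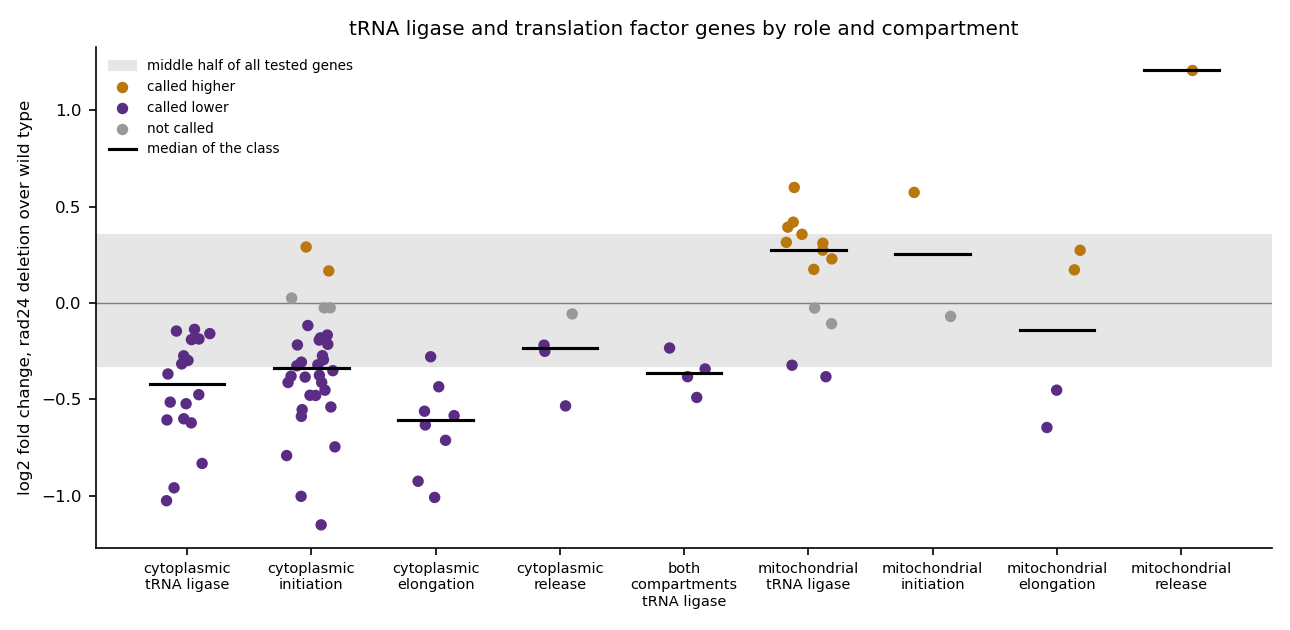
Log2 fold change of each of the 86 genes, rad24 deletion over wild type, by role and compartment (1 point per gene, black line the median of the class, grey band the quartile range of all tested genes). Every cytoplasmic tRNA ligase and elongation factor gene lies below 0, with medians of -0.42 and -0.61, and 9 of 13 ligase genes for mitochondria alone lie in the called higher group. With scaling by library size only, the called genes frs2, trs1, qrs1 and tif38 change sign.

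The cytoplasmic tRNA ligase genes were lower as a group. All 18 were called lower, at -1.03 to -0.14 on the log2 scale with a median of -0.42, while with scaling by library size only 13 were (median -0.26), wrs1 and drs1 losing their calls and frs2, trs1 and qrs1 changing sign. The gene wrs1 was not called in the authors' deposited table either (adjusted p = 0.311). In each of the 18 all deletion libraries lay below all wild type libraries, as did those of 38.3% of all tested genes. The largest fall was that of yrs1 (SPCC1672.05c), the gene of the tyrosine enzyme. It had 160.1, 165 and 192 CPM in the deletion libraries and 346, 353 and 353 CPM in the wild type libraries (log2 fold change -1.03 with an SE of 0.06, edgeR adjusted p = 1.06e-09). Among the deletion libraries replicate 3 was the highest for yrs1, and it stayed well below wild type. The methionine ligase gene rar1 (SPBC17A3.04c) had 207, 218 and 204 CPM in the deletion libraries and 418, 408 and 397 CPM in wild type (log2 fold change -0.96 with SE 0.04, edgeR adjusted p = 4.33e-11). Methionine is the amino acid with which proteins start. The lysine ligase gene krs1 (SPBC17G9.03c) had 437, 419 and 397 CPM in the deletion libraries and 754, 767 and 713 CPM in wild type (log2 fold change -0.83, SE 0.05). Both groups of krs1 were narrow beside the gap between them.

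The isoleucine, asparagine, leucine, valine and proline ligase genes irs1, nrs1, lrs1, vrs1 and prs1 followed, with log2 fold changes of -0.62, -0.61, -0.52, -0.51 and -0.48. In wild type the cytoplasmic ligase gene with the highest level per length was prs1 (SPBC19C7.06). It had 694, 692 and 674 CPM in the deletion libraries and 940, 1031 and 896 CPM in wild type, or 319 and 444 CPM per kilobase of coding sequence in the means. The wild type libraries of prs1 spread more widely than the deletion libraries. The cysteine ligase gene SPAC29E6.06c (-0.37), srs1 for serine (-0.32) and gus1 for glutamate (-0.27) fell less. The phenylalanine enzyme is built from a pair of different subunits, and frs1, for the beta subunit, had a log2 fold change of -0.30 while frs2, for the alpha subunit, had -0.14. At the weak end stood drs1 for aspartate and wrs1 for tryptophan, both at -0.19, qrs1 for glutamine at -0.16 and trs1 for threonine at -0.15. The gene trl1 matches the rule by its name but joins the exons of spliced tRNAs and charges none. It fell as well, to 59.8 ± 1.68 CPM in the deletion against 90.6 ± 2.58 CPM in wild type (SD, n = 3 each), or -0.60 on the log2 scale (edgeR adjusted p = 9.19e-09).

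The 4 ligase genes that serve both compartments fell with the cytoplasmic ones. The arginine ligase gene mrs1 (SPBC25B2.09c) had 483, 482 and 492 CPM in the deletion libraries and 665, 738 and 645 CPM in wild type (log2 fold change -0.49 with SE 0.05, edgeR adjusted p = 5.82e-07). Wild type replicate 2 was the highest of the 6 libraries for mrs1. The alanine ligase gene ala1 (SPAC23C11.09) had 515, 512 and 497 CPM in the deletion libraries and 653, 696 and 638 CPM in wild type (log2 fold change -0.38, SE 0.04). The genes grs1 for glycine and hrs1 for histidine had log2 fold changes of -0.34 and -0.23, and hrs1 was not called with scaling by library size only. Their wild type levels, 206 to 367 CPM per kilobase, lay within the range of the cytoplasmic ligases except trl1 (73.3 to 444). The level of trl1 was 37.5. They lay above the range of the ligases for mitochondria alone (27.6 to 58.3). The summed counts of these 4 genes were compared with those of the cytoplasmic ligases except trl1. Their ratio was 0.264, 0.266 and 0.267 in the deletion libraries and 0.247, 0.267 and 0.247 in wild type. The groups overlapped in this ratio.

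The ligase genes for mitochondria alone mostly rose. Of 13 such genes 9 rose, 2 fell and 2 were not called, and their median was 0.27. In each of the 9 all deletion libraries lay above all wild type libraries, as did those of 41.8% of all tested genes. The largest rise was that of the tyrosine ligase gene SPCC576.06c, which had 75.9, 79.3 and 74.3 CPM in the deletion libraries and 52.0, 47.9 and 51.0 CPM in wild type (log2 fold change 0.60 with SE 0.05, edgeR adjusted p = 3.78e-08). The groups were well apart, but in the authors' deposited table the same gene had 0.60 on the log2 scale with an SE of 0.28 and an adjusted p of 0.0513. The tryptophan ligase gene msw1 (SPAC3G9.13c) had 82.1, 75.8 and 77.3 CPM in the deletion libraries and 57.8, 61.1 and 57.4 CPM in wild type (log2 fold change 0.42, SE 0.05). It also had the highest level per length of the 13 in the deletion, 72.2 CPM per kilobase against 54.1 in wild type. The aspartate ligase gene dar2 (SPCC736.06) had 68.5, 72.7 and 71.2 CPM in the deletion libraries and 57.2, 49.3 and 54.3 CPM in wild type (log2 fold change 0.39, SE 0.05).

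Smaller rises were those of vrs2 for valine (0.36), SPBC24C6.03 for proline (0.32), dia4 for serine (0.31), msm1 for methionine (0.27), mse1 for glutamate (0.23) and SPCC18.08 for lysine (0.17). The asparagine and isoleucine ligase genes were not called, and their groups overlapped. The gene slm5 had 34.9, 34.6 and 33.0 CPM in the deletion libraries and 37.8, 33.7 and 38.4 CPM in wild type (log2 fold change -0.11, edgeR adjusted p = 0.112), and ism1 had 79.5, 79.2 and 80.7 CPM in the deletion libraries and 80.7, 82.9 and 80.3 CPM in wild type (log2 fold change -0.03, adjusted p = 0.515). The threonine and leucine enzymes were the exceptions. The threonine ligase gene SPAC24C9.09 had 56.6, 56.3 and 56.8 CPM in the deletion libraries and 75.6, 70.0 and 75.1 CPM in wild type (log2 fold change -0.38 with SE 0.04, edgeR adjusted p = 1.69e-06). The leucine ligase gene SPAC4G8.09 fell by 0.32 on the log2 scale, with 68.4 to 69.0 CPM in the deletion libraries and 84.0 to 87.8 CPM in wild type.

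For 13 amino acids the rule gives a separate gene for each compartment, and the ratio of their counts within a library does not depend on the scaling. The calls of single genes do depend on it. With TMM factors the cytoplasmic gene was called lower in all 13 pairs and the mitochondrial gene called higher in 9 of them. Of all tested genes 37.4% were called lower and 40.9% higher. With library size only drs1, wrs1 and trs1 were not called lower, and ism1 was also called higher. In 12 of the 13 pairs the cytoplasmic to mitochondrial ratio was lower in every deletion library than in every wild type library. These are genes already counted above. In the 9 pairs with the mitochondrial gene called higher, the levels of both genes already fix a lower ratio. For a single gene, the groups did not overlap in one direction or the other for 80.0% of all tested genes. The matching share for ratios of other gene pairs was not computed, for these pairs or for the ratios given further below. The widest gap was for tyrosine, where yrs1 had 2.11, 2.08 and 2.58 counts per count of SPCC576.06c in the deletion libraries and 6.65, 7.38 and 6.92 in wild type. For methionine the ratio of rar1 to msm1 was 3.27, 3.64 and 3.22 in the deletion libraries and 8.50, 8.25 and 7.16 in wild type. For leucine, where both genes fell, it was 6.72 ± 0.0815 in the deletion and 7.72 ± 0.191 in wild type (SD, n = 3 each). Threonine was the exception, with a ratio of 11.1 ± 0.112 in the deletion and 9.45 ± 0.0893 in wild type. Summed over all cytoplasmic ligases except trl1 and all 13 mitochondrial ones, the ratio was 7.08, 7.14 and 6.99 in the deletion libraries and 10.8, 11.2 and 10.7 in wild type. With 3 libraries against 3 a two-sided exact permutation test of a single ratio cannot go below p = 0.1, so these ratios are given as values.

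**Figure D2:**
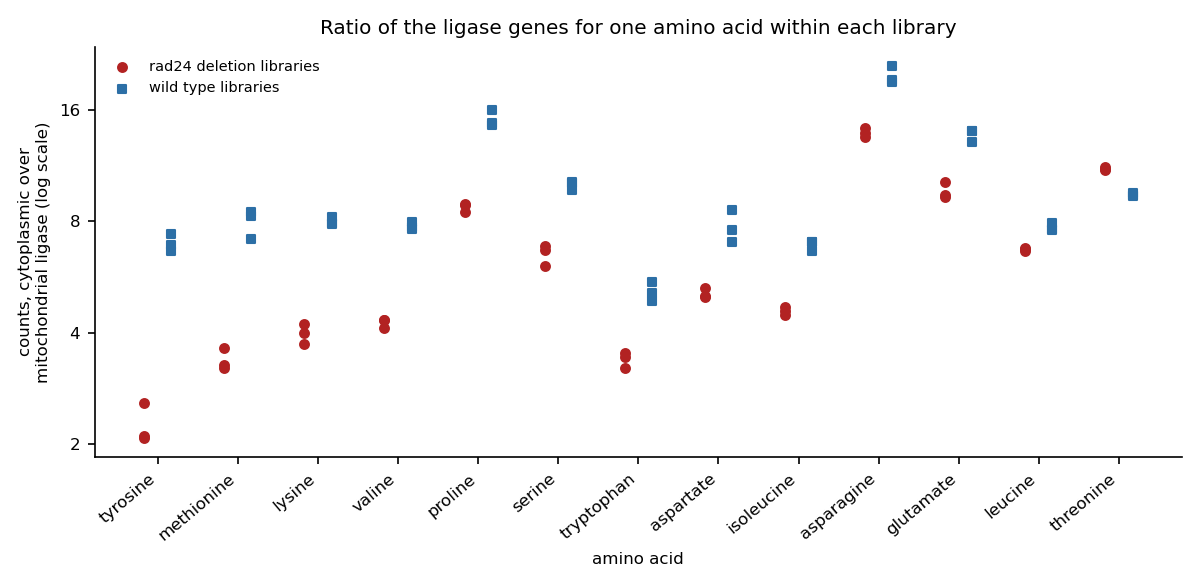
Counts of the cytoplasmic ligase gene over those of the mitochondrial one for each of 13 amino acids (log scale), with 1 point per library, rad24 deletion left and wild type right within each amino acid. The deletion libraries lie below the wild type libraries for 12 amino acids, from 2.26 against 6.98 (means) for tyrosine to 6.72 against 7.72 for leucine, and above them for threonine.

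The cytoplasmic initiation factors fell in the main, with a few genes that did not move. Counts here and for the complexes below stand against 37.4% of all tested genes called lower and 40.9% called higher. Of 32 genes 27 fell, 2 rose and 3 were not called, and the median log2 fold change was -0.34, while with scaling by library size only 21 fell and 5 rose (median -0.17) and tif38 changed sign. The largest fall of all 86 genes was that of tif5 (SPAC2F7.05c), the gene of eIF5, which triggers GTP hydrolysis by eIF2 at the start codon. It had 784, 766 and 739 CPM in the deletion libraries and 1636, 1762 and 1687 CPM in wild type (log2 fold change -1.15 with SE 0.05, edgeR adjusted p = 4.48e-11). The groups of tif5 were far apart, and the spread within each was small. The gene tif52 (SPAC56F8.03) encodes eIF5B, the GTPase that joins the ribosomal subunits. It had 372, 385 and 372 CPM in the deletion libraries and 641, 692 and 623 CPM in wild type (log2 fold change -0.79, SE 0.04). The gene tif11 encodes eIF1A, which with eIF1 helps the small subunit scan for the start codon. It had 361, 372 and 367 CPM in the deletion libraries and 600.1, 644 and 602 CPM in wild type (log2 fold change -0.75, SE 0.04).

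Its partner in scanning was not called. The eIF1 gene sui1 had 334, 351 and 352 CPM in the deletion libraries and 341, 339 and 339 CPM in wild type, and the groups overlapped (log2 fold change 0.03 with SE 0.04, edgeR adjusted p = 0.511). With upper quartile factors and with library size only it was called higher, at 0.12 and 0.19. The eIF1A-like gene tif1102 was 1 of the 2 cytoplasmic genes called higher, at 53.5, 51.4 and 53.0 CPM in the deletion libraries and 43.7, 46.5 and 39.5 CPM in wild type (log2 fold change 0.29 with SE 0.06, edgeR adjusted p = 3.08e-04). The ratio of tif11 to tif1102 counts was 6.97 ± 0.251 in the deletion and 14.3 ± 0.825 in wild type (SD, n = 3 each). The other was cdc123, the gene of an assembly factor of eIF2, at 47.0, 46.1 and 48.8 CPM in the deletion libraries and 41.2, 41.9 and 43.3 CPM in wild type (log2 fold change 0.17 with SE 0.05, edgeR adjusted p = 0.00597). The call of cdc123 was lost with DESeq2 (adjusted p = 0.0552).

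eIF2 carries the initiator tRNA, and eIF2B reloads it with GTP. All 3 eIF2 subunit genes fell. The gamma subunit gene tif213 had 392, 441 and 451 CPM in the deletion libraries and 632, 626 and 627 CPM in wild type (log2 fold change -0.55 with SE 0.05, edgeR adjusted p = 1.79e-07), with deletion replicate 1 the lowest. The alpha subunit gene tif211, whose product is the target of the eIF2 kinases, had 394, 394 and 380.0 CPM in the deletion libraries and 524, 567 and 509 CPM in wild type (log2 fold change -0.45). The beta subunit gene tif212 had 689, 684 and 672 CPM in the deletion libraries and 836, 889 and 883 CPM in wild type (log2 fold change -0.35).

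All 5 eIF2B genes fell too, by unequal amounts. The beta subunit gene tif222 (SPAC343.14c) had 91.5, 88.6 and 89.9 CPM in the deletion libraries and 186, 174 and 181 CPM in wild type (log2 fold change -1.0 with SE 0.03, edgeR adjusted p = 8.22e-12). The groups were far apart for tif222 as well. The gamma gene tif223 had 142, 140.3 and 134 CPM in the deletion libraries and 205, 219.8 and 203 CPM in wild type (log2 fold change -0.59). The epsilon gene tif225, for the catalytic subunit, had 221, 214 and 219 CPM in the deletion libraries and 298, 320.3 and 295 CPM in wild type (log2 fold change -0.48). The delta gene tif224 had 184, 181 and 176 CPM in the deletion libraries and 219, 228 and 217 CPM in wild type (log2 fold change -0.29). The alpha gene tif221 had 187, 184.5 and 184.5 CPM in the deletion libraries and 221, 212 and 212 CPM in wild type. It fell least (log2 fold change -0.21) and was not called with scaling by library size only (-0.05, adjusted p = 0.206). Per length, the 5 genes ranged from 76.1 to 181 CPM per kilobase in the deletion and from 149 to 209.5 in wild type.

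eIF3 is the large scaffold on the small subunit. Its 10 genes matched by subunit letter all fell, with log2 fold changes of -0.54 to -0.12 and a median of -0.32. The core subunit gene tif32 (eIF3a) fell most, to 930.5 ± 23.6 CPM in the deletion against 1353 ± 55.7 CPM in wild type (SD, n = 3 each; SE 0.05, edgeR adjusted p = 9.70e-08). The genes tif35 (eIF3g, -0.48), moe1 (eIF3d, -0.41), tif33 (eIF3c, -0.38), SPAC25G10.08 (eIF3b, -0.33), sum1 (eIF3i, -0.31), tif313 (eIF3m, -0.27) and eif6 (eIF3f, -0.22) stood between. The loosely bound eIF3j gene hcr1 (-0.18) and the eIF3h gene tif38 (-0.12) were at the weak end, and tif38 lost its call with upper quartile factors, with library size only and without rad24 deletion replicate 1. The eIF3-associated gene clu1 had 115, 117 and 119 CPM in the deletion libraries and 118, 115 and 124 CPM in wild type (log2 fold change -0.02, adjusted p = 0.522), and the groups overlapped.

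The cap-binding complex eIF4F brings the mRNA to the ribosome. The eIF4A helicase gene tif1 (SPAC1006.07) had the highest level per length of the initiation factors, 2347 CPM per kilobase in the deletion and 3064 in wild type. It had 2794, 2724 and 2785 CPM in the deletion libraries and 3594, 3873 and 3370.2 CPM in wild type (log2 fold change -0.38 with SE 0.06, edgeR adjusted p = 2.34e-05). The scaffold gene tif471 (eIF4G) had a log2 fold change of -0.32. The cap-binding protein eIF4E has 2 genes, which differed. The main gene tif45 had 272, 273 and 281 CPM in the deletion libraries and 284, 282 and 273 CPM in wild type, and was not called (log2 fold change -0.02, edgeR adjusted p = 0.52). The gene of the other isoform, tif452, fell, to 128 ± 4.99 CPM in the deletion against 146 ± 1.02 CPM in wild type (log2 fold change -0.19, edgeR adjusted p = 1.69e-04), and lost its call with scaling by library size only. There were 0.457, 0.460 and 0.475 counts of tif452 per count of tif45 in the deletion libraries and 0.510, 0.520 and 0.534 in wild type. Among the remaining genes sce3 (-0.41), eif21 for eIF2A (-0.17) and tif6 (-0.38), which acts in ribosome biogenesis, fell.

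**Figure D3:**
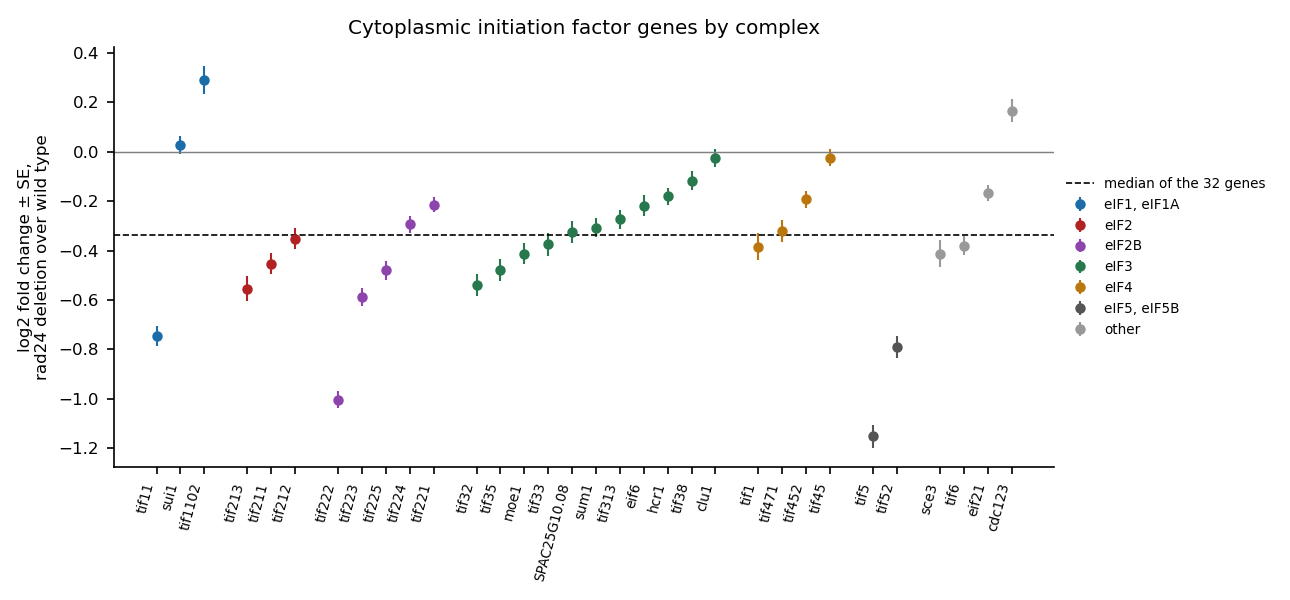
Log2 fold change with its SE for the 32 cytoplasmic initiation factor genes, rad24 deletion over wild type, grouped by complex, with the median of -0.34 as a dashed line. The eIF5 gene tif5 (-1.15) and the eIF2B gene tif222 (-1.0) lie lowest, clu1, tif45 and sui1 lie near 0, and cdc123 and tif1102 lie above it. Under library size scaling tif38 lies above 0.

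The elongation factor genes had the lowest median of the roles. Against 37.4% of all tested genes called lower, all 8 cytoplasmic genes fell. Their log2 fold changes were -1.01 to -0.28, with a median of -0.61. Their summed level was 12605, 12170 and 11047 CPM in the deletion libraries and 18252, 19633 and 17154 CPM in wild type. For each of the 8 genes deletion replicate 1 was the highest deletion library and wild type replicate 2 the highest wild type library. eEF1A carries charged tRNAs to the ribosome and is encoded by 3 genes. The gene tef101 had 1367, 1309.8 and 1118 CPM in the deletion libraries and 2529.6, 2727 and 2380.4 CPM in wild type (log2 fold change -1.01 with SE 0.07, edgeR adjusted p = 1.88e-08). The gene tef102 had 544, 542 and 489 CPM in the deletion libraries and 987, 1075 and 928.5 CPM in wild type (log2 fold change -0.93, SE 0.06). The gene tef103 had 2204, 2095 and 1840.5 CPM in the deletion libraries and 3372, 3615 and 3075 CPM in wild type (log2 fold change -0.71, SE 0.07). The ratio of tef101 to tef103 counts was 0.620, 0.625 and 0.607 in the deletion libraries and 0.750, 0.754 and 0.774 in wild type. The groups did not overlap in this ratio, and whether the copies changed by different factors was not tested.

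eEF2 moves the ribosome by a codon and has 2 genes. The gene eft202 had 657, 633 and 593 CPM in the deletion libraries and 967, 1014 and 938 CPM in wild type (log2 fold change -0.63 with SE 0.05, edgeR adjusted p = 3.75e-08). The gene eft201 had 407, 384 and 377 CPM in the deletion libraries and 584, 604 and 563 CPM in wild type (log2 fold change -0.58, SE 0.04). The copies of eEF1A and of eEF2 are near-identical in their coding sequence, and reads that match more than 1 copy may have been left out or split by the counting, so their levels and their differences are uncertain. The fungal factor eEF3, an ATPase that helps clear the used tRNA, is encoded by tef3 (SPCC417.08). It took the most CPM of all 86 genes, with 4449, 4338 and 3951 CPM in the deletion libraries and 6178, 6798 and 5825 CPM in wild type (log2 fold change -0.56 with SE 0.07, edgeR adjusted p = 3.29e-06). The exchange factor of eEF1A changed least. Its beta subunit gene tef5, which had the highest level per length of the elongation genes (1990.0 CPM per kilobase in the deletion and 2689 in wild type), had 1362, 1300 and 1187 CPM in the deletion libraries and 1733, 1819 and 1652 CPM in wild type (log2 fold change -0.43). Its gamma subunit gene SPAC29A4.02c had 1616, 1568 and 1493 CPM in the deletion libraries and 1901, 1980.4 and 1793 CPM in wild type (log2 fold change -0.28).

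**Figure D4:**
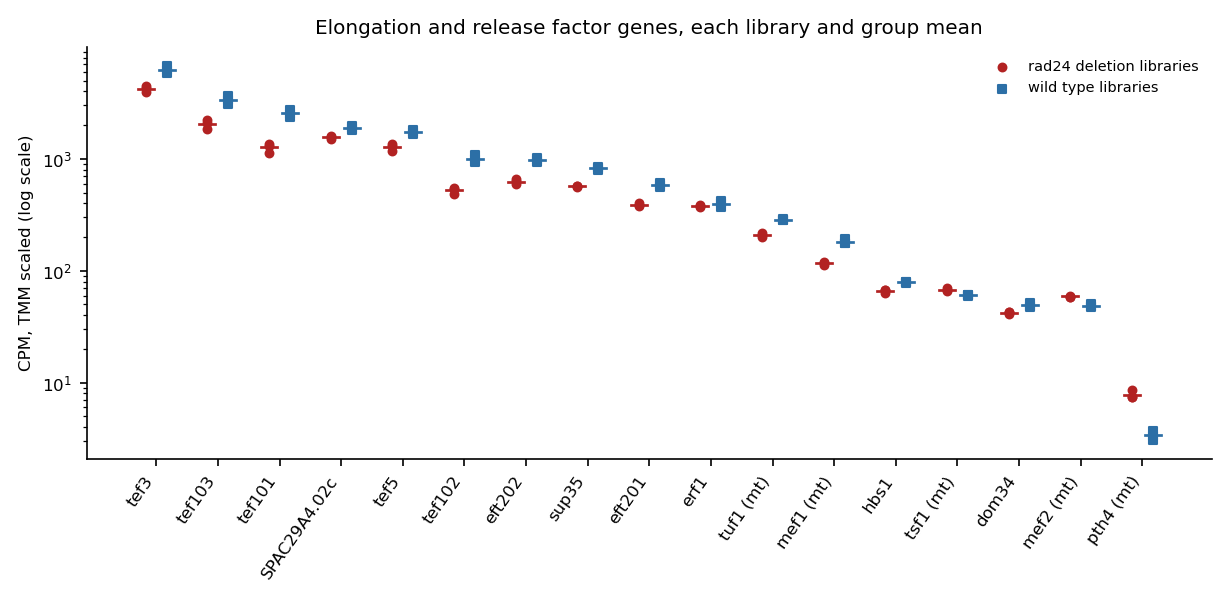
CPM of each elongation and release factor gene on a log scale, with 1 point per library and a line at the mean, rad24 deletion left and wild type right (mt marks mitochondrial genes). The cytoplasmic elongation genes lie lower in every deletion library, such as 3951 to 4449 CPM against 5825 to 6798 CPM for tef3. The mitochondrial genes tsf1, mef2 and pth4 lie higher.

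Stop codons are read by eRF1 with the GTPase eRF3, and here the 2 genes differed. The eRF3 gene sup35 (SPCC584.04) had 571, 571 and 562 CPM in the deletion libraries and 831.5, 847 and 789 CPM in wild type (log2 fold change -0.53 with SE 0.04, edgeR adjusted p = 3.81e-08). The eRF1 gene erf1 had 372, 381 and 390.4 CPM in the deletion libraries and 400.1, 417 and 373 CPM in wild type, and the groups overlapped (log2 fold change -0.06 with SE 0.04, edgeR adjusted p = 0.248). It was called lower without wild type replicate 3 (-0.10, adjusted p = 0.0295) and called higher with scaling by library size only (0.11, adjusted p = 0.0266). There were 1.54, 1.499 and 1.44 counts of sup35 per count of erf1 in the deletion libraries and 2.08, 2.03 and 2.12 in wild type, so the ratio was lower in each deletion library. Hbs1 and Dom34, relatives of eRF3 and eRF1 that rescue stalled ribosomes, are encoded by genes at lower levels. The gene hbs1 had 67.1, 63.2 and 67.6 CPM in the deletion libraries and 78.1, 78.5 and 78.9 CPM in wild type (log2 fold change -0.25, SE 0.04). The gene dom34 had 41.2, 42.4 and 42.6 CPM in the deletion libraries and 47.6, 51.1 and 48.5 CPM in wild type (log2 fold change -0.22, SE 0.05). Both calls were lost with scaling by library size only.

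The factors of mitochondrial translation did not move together. Of 4 elongation factor genes 2 fell and 2 rose, where 37.4% of all tested genes were called lower and 40.9% higher. The gene mef1 (SPBC1306.01c), for a translocase of the EF-G type, had 119.6, 116 and 114 CPM in the deletion libraries and 193, 176 and 177 CPM in wild type (log2 fold change -0.65 with SE 0.04, edgeR adjusted p = 3.47e-09). The other EF-G type gene, mef2, had 58.8, 59.6 and 58.2 CPM in the deletion libraries and 47.5, 50.3 and 48.6 CPM in wild type (log2 fold change 0.27 with SE 0.04, edgeR adjusted p = 5.45e-05). In the authors' deposited table mef2 had an SE of 0.23 and was not called (adjusted p = 0.32). The ratio of mef1 to mef2 counts was 2.03, 1.95 and 1.95 in the deletion libraries and 4.06, 3.50 and 3.65 in wild type. The EF-Tu gene tuf1, whose product carries charged tRNAs, had 210.4, 216 and 200.4 CPM in the deletion libraries and 288, 285 and 285 CPM in wild type (log2 fold change -0.45, SE 0.04). The gene of its exchange factor EF-Ts, tsf1, went the other way, with 67.6, 69.5 and 66.3 CPM in the deletion libraries and 60.7, 60.4 and 59.5 CPM in wild type (log2 fold change 0.17 with SE 0.04, edgeR adjusted p = 0.00145). There were 3.08 ± 0.0510 counts of tuf1 per count of tsf1 in the deletion and 4.75 ± 0.0401 in wild type (SD, n = 3 each).

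Of the mitochondrial initiation factors, mti3 rose and mti2 was not called. The gene mti3 had 31.9, 31.1 and 31.2 CPM in the deletion libraries and 20.8, 21.4 and 21.2 CPM in wild type (log2 fold change 0.57 with SE 0.06, edgeR adjusted p = 6.64e-07). The gene mti2, for the factor of the IF2 type, had 82.6, 82.9 and 83.8 CPM in the deletion libraries and 86.7, 89.8 and 85.4 CPM in wild type (log2 fold change -0.07 with SE 0.04, edgeR adjusted p = 0.0869). Its groups did not overlap but the difference was small. It was called lower with RLE factors (-0.09, adjusted p = 0.0317) and without wild type replicate 3 (-0.09, adjusted p = 0.0496), and higher with library size only (0.09, adjusted p = 0.0378). The gene pth4 (SPAC589.11), described as a mitochondrial release factor, had the largest rise of the 86. It had 7.46, 7.49 and 8.52 CPM in the deletion libraries and 3.04, 3.36 and 3.72 CPM in wild type (log2 fold change 1.21 with SE 0.14, edgeR adjusted p = 2.20e-06). It was also the gene with the lowest level, and its counts were the fewest.

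Ribosomal protein genes were counted in the same way, where 37.4% of all tested genes were called lower and 40.9% higher. Of 130 genes for proteins of the 40S and 60S subunits 129 fell and 1 rose (median -0.50 on the log2 scale), while with library size only 121 fell (median -0.34). Of 74 mitochondrial ribosomal protein genes 38 rose and 17 fell (median 0.13), while with upper quartile factors 48 rose and 12 fell (median 0.23) and with library size only 51 rose and 6 fell (median 0.29). The median of the 13 ligase genes for mitochondria alone was 0.27, with upper quartile factors 0.37 and with library size only 0.44. These medians were set side by side without a test.

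Other genes of the pathway were followed in 7 lists, to be read against the 37.4% of all tested genes called lower and the 40.9% called higher. In the list of Elongator and thiolation genes, which modify the wobble base of tRNAs, 9 of 13 tested genes fell and 3 rose (median -0.42 on the log2 scale). The largest changes were in elp4 (-0.76) and trm112 (-0.74), and elp6 (-0.63) came next. The product of trm112 is described as a subunit of eRF1 and tRNA methyltransferase complexes. The gene rad31, matched to this list through an older name, encodes a SUMO-activating enzyme. Of 18 tested genes of RNA polymerase III and its factors, which transcribe the tRNA genes, 10 fell and 4 rose (median -0.15), while with scaling by library size only 5 fell and 7 rose (median 0.02). The most changed were rpc11 (-0.85), rpc1 (-0.63) and sfc3 (0.47). No count of sfc7 was found. Of 16 genes of tRNA maturation and export 6 fell and 5 rose (median 0.02), shares of 37.5% and 31.2%. With RLE factors 6 fell and 4 rose (median -0.01), with upper quartile factors 6 fell and 9 rose (median 0.11) and with library size only 5 fell and 9 rose (median 0.18). The list was led by the methyltransferase gene trm1 (-0.99), sen1 (-0.74) and the splicing endonuclease gene sen15 (0.70). In this list sen1, a helicase gene, and pop1, a cullin adaptor gene, were matched by name but have another function.

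Of 14 genes of translation control 8 fell and 4 rose (median -0.21), while with library size only 6 fell and 6 rose (median -0.05). Among them tif452 is 1 of the 86, and maf1 is also in the RNA polymerase III list. The largest changes were in hri2 (0.90), for a kinase of eIF2 alpha, in cpc2 (-0.90), for the ribosome-bound protein RACK1, and in psk1 (0.90), for a kinase of ribosomal protein S6. The other eIF2 kinase genes had log2 fold changes of -0.64 (hri1) and 0.12 (gcn2). In this list bip1, an ER chaperone gene, and ppp1, a ribosome biogenesis gene, have another function. Of 9 genes that modify eEF2 or eIF5A 4 fell and 3 rose (median -0.06), while with upper quartile factors 1 fell and 4 rose (median 0.04) and with library size only 1 fell and 5 rose (median 0.11). The most changed was mmd1 (-0.84), for deoxyhypusine hydroxylase. Of 10 genes of ribosome rescue and mRNA surveillance, hbs1 and dom34 among them, 6 rose and 4 fell (median 0.14), while with upper quartile factors the median was 0.24 and with library size only 6 rose and 1 fell (median 0.30). The most changed were upf3 (0.38), upf1 (-0.33) and rkr1 (0.32). Of 7 genes of poly(A) binding and tail length 3 fell and 2 rose (median -0.06), while with upper quartile factors the median was 0.03 and with library size only 2 fell and 4 rose (median 0.10). The gene pabp, for the poly(A)-binding protein, fell by 0.70 on the log2 scale.

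Annotated antisense RNAs opposite 7 of the 86 genes are counted in the same table. Opposite vrs2 the antisense RNA averaged 4.09 CPM in the deletion and 13.6 CPM in wild type (log2 fold change -1.74, edgeR adjusted p = 3.41e-09), while vrs2 itself rose. Opposite SPAC4G8.09 it averaged 7.47 CPM in the deletion and 11.3 CPM in wild type (log2 fold change -0.60), and SPAC4G8.09 itself fell too. Opposite qrs1, which fell, it averaged 2.1 CPM in the deletion and 0.314 CPM in wild type (log2 fold change 2.76), with 2, 4 and 6 wild type counts. The antisense RNA of tif211, which fell, rose to 1.14 CPM in the deletion against 0.573 CPM in wild type (log2 fold change 1.0). It had 4, 7 and 11 wild type counts. Those of sum1, tef102 and tef103 were too low to be tested. Whether an antisense RNA bears on the level of its gene was not tested. The sources used here do not give the strand setting of the counting, and whether it separated the reads of a gene from those of its antisense RNA is not known.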

How the data were processed

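Poly(A)+ RNA libraries made with a stranded kit were sequenced as pairs, per the labels' protocols. The submitters' processing notes name the build ASM294v2, the aligner HISAT2 2.1.0, the counter HTSeq 0.10.0, DESeq2 and SAMtools. The authors deposited raw counts per gene and a table of their comparison. That table gives, per the file headers, the log2 fold change and its standard error, raw and adjusted p-values, a test score and mean normalized counts as a signal. The last 2 were not used further.

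Genes were tested in edgeR 4.0.16 (R 4.3.3, limma 3.58.1) with TMM factors, filterByExpr (6084 of 6986 genes kept, 1 repeated identifier dropped) and the quasi-likelihood test, with genotype as the only term. P-values were adjusted over all tested genes after Benjamini and Hochberg, with a threshold of 0.05. The SE is the absolute log2 fold change divided by the square root of F. It was below the SE of the authors' deposited table for 78 of 86 genes and may overstate the precision. The biological coefficient of variation was 3.61%, so small differences passed. The steps were also run on simulated counts in which few genes changed, evenly up and down. Most genes were called in these data, so that run does not check the scaling or the false calls here. Between libraries of a genotype, chi-square per degree of freedom was 2.45 to 7.76, above sampling noise, and each was counted as a replicate.

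Coding lengths came from the RefSeq annotation of ASM294v3, matched by systematic identifier for all 86 genes. Coordinates and sequences of that build were not used here, nor was the planned search for promoter motifs. The genes and lists were chosen with earlier results of these data known. Every gene of the rule could be named. Values in every library were given, by rule, for the 3 largest called rises and falls of each role and compartment with at least 5 CPM, the gene with the highest CPM per kilobase, the genes not called, and the eIF2, eIF2B, eEF1A and eEF2 genes. The library values of tif11, tef3 and SPAC29A4.02c were given outside this rule. Lists name up to 3 genes, others being named after their values were seen (gcn2, hri1, genes of another function). Of the list names, 2 were matched by an older name and 6 were not matched, counting mating markers. Alternatives were other scaling factors, filters and tools (DESeq2 1.42.0, limma-voom), leaving out each library, the replicate number as a block, and protein-coding genes only.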

Additional observations from a re-analysis of the deposited data

How the results depend on the processing

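The counts of called cytoplasmic genes, called mitochondrial genes and all called genes stayed within 1.5 times of those reported under the alternatives run, apart from those named here. Counts of the other lists moved further with the scaling, as given beside them. With scaling by library size only, 6 cytoplasmic genes were called higher and 43 lower, where the median over all genes was 0.19 on the log2 scale (0.12 with upper quartile factors, 0.02 with TMM), and higher genes made up 67.0% of all calls (61.1% with upper quartile factors, 52.3% with TMM). With DESeq2, 1 cytoplasmic gene was called higher, and without trl1, tif6 and cdc123 also 1. The median of the cytoplasmic genes was -0.40 with RLE factors, -0.28 with upper quartile factors, -0.21 with library size only, -0.40 with DESeq2 and -0.35 without the eEF1A and eEF2 genes. The median of the mitochondrial genes was 0.15 with RLE factors, 0.27 with upper quartile factors, 0.34 with library size only and 0.15 with DESeq2. Without the 4 genes that serve both compartments 4 mitochondrial genes were called lower and the median was 0.25. Leaving out each library in turn gave cytoplasmic medians of -0.41 to -0.34 and mitochondrial medians of 0.15 to 0.18. Counting the 4 genes that serve both compartments as cytoplasmic gave 60 called lower and a median of -0.38. These changes of the gene sets were chosen after seeing the data.

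Of the 86 genes, library size only ended 14 calls and made 6. Of the 14, frs2, tif38, trs1 and qrs1 changed sign, and wrs1, drs1, hrs1, hcr1, eif6, eif21, tif221, tif452, hbs1 and dom34 did not. Upper quartile factors ended 5 calls (frs2, tif38, trs1, qrs1 and eif21). Without wild type replicate 2, slm5 was called lower (-0.16, adjusted p = 0.0212). With library size only tif45, clu1 and ism1 were called higher (0.14 each). The 5 genes called here and not in the authors' deposited table were wrs1, cdc123, msm1, SPCC576.06c and mef2. With the replicate block 56 cytoplasmic genes were lower and 2 higher, and 13 mitochondrial genes higher and 8 lower, as without it. Same-numbered libraries did not deviate together (correlations of -0.001, -0.003 and 0.05), so no pairing by number was seen in the counts. These correlations cannot tell whether same-numbered libraries were grown or prepared together.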

Other observations

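Some genes of the same processes have descriptions worded outside the rule and were looked up after these were seen. Both genes of eIF5A, a factor of elongation and termination, fell. The gene tif51 averaged 610.3 CPM in the rad24 deletion and 1448 CPM in wild type (log2 fold change -1.25, edgeR adjusted p = 9.82e-11), and tif512 averaged 1315 CPM in the deletion and 1981 CPM in wild type (log2 fold change -0.59, adjusted p = 1.18e-07). These genes may share reads. The eIF3e gene int6 (-0.39) and asc1 (-0.25), for a cofactor of the methionine and glutamate ligases, fell, and SPCC1183.02, described as an eEF1 glutathione S-transferase, was not called (-0.05, adjusted p = 0.269). Of the mitochondrial genes, msf1 for the phenylalanine ligase (0.24) and the release factor gene mrf1 (0.26) rose, while the elongation factor gene guf1 fell by 0.47 on the log2 scale.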
